A study of Mus musculus with 6 samples.

Results

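The genes described here are 10 members of the serotonin receptor family in the mouse, *Htr1a*, *Htr1b*, *Htr1d*, *Htr1f*, *Htr2a*, *Htr2c*, *Htr3a*, *Htr4*, *Htr5a* and *Htr7*. They were picked by symbol, as 10 of the 21667 named genes in every table. RNA of the somatosensory cortex was sequenced from 3 control mice (Mef2cfl/fl) and 3 mice labelled *Mef2c* cKO (Mef2cfl/fl; Emx1-Cre), all males of the strain labelled mixed SVeV-129; C57BL/6J. Replicate 1 of each genotype was 14 weeks old and replicates 2 and 3 were 12 weeks old, and both genotypes carry the floxed *Mef2c* alleles. Cre is expressed from the *Emx1* gene, in most excitatory neurons of the neocortex and in some forebrain glia, so other cells of the dissected tissue keep *Mef2c*. The tissue holds all of these cells together, and fewer cells of a type cannot be told apart from less RNA per cell.

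Serotonin reaches the cortex through axons of neurons in the brainstem raphe nuclei and acts there on receptors of several classes. The class 1 receptors couple to Gi/o proteins, which lower cyclic AMP and open GIRK potassium channels, and the class 2 receptors couple to Gq and phospholipase C. The products of *Htr4* and *Htr7* couple to Gs and raise cyclic AMP, while *Htr3a* encodes a subunit of a cation channel that serotonin opens directly. In the cortex, *Htr1a* and *Htr2a* are known for their inhibitory and excitatory actions on pyramidal neurons, and *Htr3a* marks a class of GABAergic interneurons.

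The receptor genes changed in both directions. *Htr1b* was 6.00-fold higher and *Htr1a* 2.35-fold higher in the mice labelled *Mef2c* cKO, and *Htr7* was 3.39-fold lower, as ratios of the mean levels. *Htr2a* and *Htr3a* were higher by 33.2% and 34.9% and *Htr1f* was lower by 23.7%, close to the thresholds of the test. *Htr1d*, *Htr2c*, *Htr4* and *Htr5a* did not pass. All 10 genes passed the filter on low values. A gene was called when its adjusted p-value in limma was under 0.05 and its absolute log2 fold change above 0.3, and by this rule 4 of the 10 were higher and 2 lower. Over all 14625 genes tested 13.7% were called, 5.88% as higher and 7.77% as lower. The median log2 fold change of the 10 genes was 0.28, beside 0.0079 over all genes tested, and the median absolute log2 fold change was 0.41, beside 0.13.

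**Figure D1:**
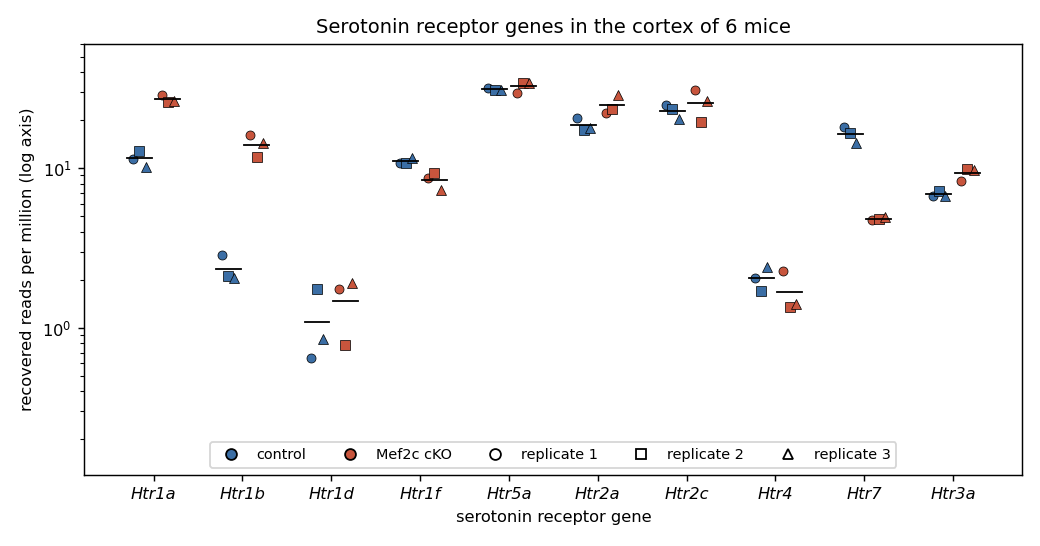
Level of each serotonin receptor gene in CPM, recovered counts per 1000000 reads (log axis), in the 3 control mice (blue) and the 3 mice labelled *Mef2c* cKO (red), with a symbol for each replicate number and a bar at each mean. The groups stand apart for *Htr1a*, *Htr1b* and *Htr7*, by smaller steps for *Htr1f*, *Htr2a* and *Htr3a*, and overlap for the other 4 genes.

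Sequencing depth was between 19326365 and 54128334 reads per mouse, with the smallest library in *Mef2c* cKO replicate 2. The deposited RPKM values divide the same gene by a different length in each mouse. For *Htr1b*, this length went from 1950 to 578656 bases. Read counts were therefore recovered from the values and are given as CPM, counts per 1000000 reads, with no division by length. Each count of the 10 genes in the 6 mice was recovered, and 59 of these 60 counts had a single length that fitted in their own table. The exception was the count of *Htr2a* in *Mef2c* cKO replicate 3. Libraries of one genotype correlated at 0.992 to 0.995 across genes on the log2 scale and libraries of different genotypes at 0.978 to 0.981. *Mef2c* itself, which encodes a transcription factor, had 800.3, 771.8 and 800.2 CPM in controls and 1231, 1276 and 1468 CPM in the libraries labelled *Mef2c* cKO. Reads of the whole gene were summed, so this row cannot show whether the floxed part was lost, and every direction below rests on the labels. *Emx1*, the gene that holds the Cre insertion, had 16.5, 20.3 and 18.8 CPM in controls and 5.71, 4.97 and 5.1 CPM in the libraries labelled *Mef2c* cKO (log2 fold change -1.79, limma adjusted p = 1.24e-05). The 10 markers of cortical pyramidal neurons summed to 5766 to 6890 CPM in controls and 6024 to 7109 CPM in the cKO libraries. *Camk2a* made the largest part of these sums, with means of 3346 and 3330 CPM, and single markers of the list moved in both directions.

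The pair of class 1 genes that rose encode receptors found on cell bodies and on axon terminals. *Htr1a*, whose product inhibits pyramidal neurons and also raphe neurons, has a single exon on chromosome 13 of mm9 from 106233773 to 106238213. Its level was 11.5, 12.9 and 10.15 CPM in control replicates 1, 2 and 3 and 28.6, 26.0 and 26.4 CPM in *Mef2c* cKO replicates 1, 2 and 3. The lowest cKO library thus lay far above the highest control, with 391 to 635 reads behind each control value and 503 to 1431 behind each cKO value. The means were 11.5 ± 1.354 (SD, n = 3) and 27.0 ± 1.357 (SD, n = 3), a difference of 1.23 on the log2 scale (SE 0.10, limma adjusted p = 5.73e-05).

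*Htr1b*, whose product sits mostly on axon terminals and limits transmitter release, lies on chromosome 9 of mm9 from 81524950 to 81526222, in 1 annotated exon. It had 2.85, 2.13 and 2.06 CPM in control replicates 1, 2 and 3, from 97, 105 and 106 reads. In *Mef2c* cKO replicates 1, 2 and 3 it had 16.1, 11.75 and 14.4 CPM, from 526, 227 and 778 reads. Its rise was the largest among the 10 genes, 2.54 on the log2 scale (SE 0.17, 95% interval 2.16 to 2.91, limma adjusted p = 1.48e-05). Only 17 of the 860 genes called higher had a larger log2 fold change. The exon overlaps a lincRNA gene on the opposite strand, D430036J16Rik, which has no value under that name in the deposited data. The library was directional, but the strand setting of the counting is not given in the sources used here, so reads of that gene cannot be told apart from those of *Htr1b*.

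*Htr1f* and *Htr1d*, the other class 1 genes, did not rise past the test. *Htr1f*, 3 exons on chromosome 16 of mm9 from 64924555 to 65105610, had 10.8, 10.8 and 11.6 CPM in controls and 8.67, 9.37 and 7.30 CPM in the cKO libraries. All cKO values lay below all controls, and the log2 fold change was -0.39 (SE 0.12, limma adjusted p = 0.048). The call was kept without *Mef2c* cKO replicate 2 and was lost without any one of the other 5 mice, with limma adjusted p-values of 0.087 to 0.145. *Htr1d*, on chromosome 4, was the gene with the fewest reads. It had 0.65, 1.76 and 0.85 CPM in controls and 1.74, 0.78 and 1.90 CPM in the cKO libraries, and the values overlapped. Its lowest count, 15 reads in *Mef2c* cKO replicate 2, allows 0.434 to 1.28 CPM (exact 95% binomial interval, counting error only). The mice of one genotype also differed beyond this error, and no change of *Htr1d* was shown, with a 95% interval of its log2 fold change from -0.47 to 1.33.

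The unequal changes altered the make-up of class 1. Summed over *Htr1a*, *Htr1b*, *Htr1d* and *Htr1f*, the level was 26.0 ± 1.47 CPM (SD, n = 3) in controls and 51.0 ± 3.66 CPM (SD, n = 3) in the cKO libraries. *Htr1b* supplied 9.04% ± 1.79 of these reads in controls and 27.5% ± 2.58 in the cKO libraries (SD, n = 3). The share of *Htr1f* was 42.7% ± 3.97 in controls and 16.6% ± 2.59 in the cKO libraries (SD, n = 3). Within a library, where the scaling to the total cancels, there were 0.25, 0.17 and 0.20 reads of *Htr1b* per read of *Htr1a* in controls and 0.56, 0.45 and 0.54 in the cKO libraries. This ratio was thus higher in each cKO library than in each control (exact permutation test on the ratio, two-sided p = 0.1, the smallest that 3 mice against 3 allow).

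*Htr7* went the opposite way. Its product, a Gs-coupled receptor, is known for depolarizing neurons and for roles in rhythms and sleep, and the gene spans 36033224 to 36131997 on chromosome 19 of mm9. Controls had 18.1, 16.6 and 14.5 CPM and the cKO libraries 4.76, 4.81 and 4.91 CPM, from 617, 818 and 746 reads against 156, 93 and 266. The cKO values were closer to each other than the counting error of the shallowest one, whose 93 reads allow 3.88 to 5.90 CPM (exact 95% binomial interval). The log2 fold change was -1.74 (SE 0.11, 95% interval -1.99 to -1.49, limma adjusted p = 1.31e-05). Of the 1137 genes called lower, 93 had a larger decrease.

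*Htr4*, the other gene with a Gs-coupled product among the 10, is on chromosome 18 of mm9 from 62483858 to 62627456. It had 2.06, 1.70 and 2.41 CPM in controls and 2.26, 1.345 and 1.404 CPM in the cKO libraries. The values overlapped, and the log2 fold change was -0.31 (95% interval -0.83 to 0.21, limma adjusted p = 0.43), and 26 reads stood behind the value of *Mef2c* cKO replicate 2. Together *Htr4* and *Htr7* had 18.45 ± 1.67 CPM in controls and 6.50 ± 0.46 CPM in the cKO libraries (SD, n = 3).

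Per library, the balance of *Htr1a* and *Htr7* turned over. Controls had 0.63, 0.78 and 0.70 reads of *Htr1a* per read of *Htr7*, and the cKO libraries 5.99, 5.41 and 5.38. The ratio was thus under 1 in each control and over 5 in each cKO library, which follows from the opposite changes of the pair. For *Htr1b* per read of *Htr7*, the means were 0.14 ± 0.014 and 2.91 ± 0.47 (SD, n = 3).

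The promoters of the 3 genes with the largest changes are printed because the products act in opposite directions on cyclic AMP and the genes moved in opposite directions. Each line gives the 250 bases before the RefSeq start of the gene, 5′ to 3′ on its own strand, with CpG dinucleotides in capitals. In GRCm38.p6 these are chr13:105443443-105443692 on the plus strand, chr9:81633833-81634082 on the minus strand and chr19:36057361-36057610 on the minus strand.
Htr1a: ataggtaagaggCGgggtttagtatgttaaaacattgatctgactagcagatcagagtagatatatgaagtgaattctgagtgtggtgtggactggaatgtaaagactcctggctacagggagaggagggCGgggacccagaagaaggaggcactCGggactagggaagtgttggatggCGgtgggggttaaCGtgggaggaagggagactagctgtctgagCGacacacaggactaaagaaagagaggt
Htr1b: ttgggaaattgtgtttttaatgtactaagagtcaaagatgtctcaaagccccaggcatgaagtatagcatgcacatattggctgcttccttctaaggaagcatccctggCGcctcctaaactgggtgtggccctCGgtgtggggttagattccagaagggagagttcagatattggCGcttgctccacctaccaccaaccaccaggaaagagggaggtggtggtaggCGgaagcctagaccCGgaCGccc
Htr7: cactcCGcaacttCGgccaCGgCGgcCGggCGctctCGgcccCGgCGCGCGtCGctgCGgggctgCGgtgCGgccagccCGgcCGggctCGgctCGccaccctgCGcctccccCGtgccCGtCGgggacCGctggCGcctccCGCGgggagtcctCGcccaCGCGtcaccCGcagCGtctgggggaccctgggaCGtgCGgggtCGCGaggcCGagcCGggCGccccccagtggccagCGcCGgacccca
The *Htr7* stretch holds 41 CpG dinucleotides and 82% G and C, more G and C than 99.3% of the 32851 RefSeq promoter windows. The *Htr1a* and *Htr1b* stretches hold 6 CpG each, the median of all windows, with 50.4% and 52.4% G and C. RefSeq gave windows of 300 bases, from 250 before to 50 after the start, for 8 of the 10 genes, 9 windows in all. *Htr3a* and *Htr4* had none. The consensus motif of MEF2 factors (C or T, TA, 4 bases of A or T, TA, A or G) was searched on both strands. So was a form with fixed outer bases and a free centre (CTA, any 4 bases, TAG), and 1 stretch can match both. Neither was found in any of the 9 windows, beside matches in 3.19% (consensus) and 3.69% (free centre) of all windows. This says only that these letters are not in these windows.

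The class 2 genes differed in whether they passed. *Htr2a*, whose product excites pyramidal neurons and is the main target of classical hallucinogens, has 3 exons on chromosome 14 of mm9 from 75040647 to 75106666. It had 20.5, 17.45 and 17.8 CPM in controls and 22.02, 23.4 and 28.9 CPM in the cKO libraries, with no overlap. The log2 fold change was 0.41 (SE 0.12, limma adjusted p = 0.041). The call was kept without control replicate 1 or *Mef2c* cKO replicate 1 and lost without any one of the other 4 mice, with limma adjusted p-values of 0.066 to 0.127. More than 1 length fitted the count of *Mef2c* cKO replicate 3, which gave the highest value. On single-length counts alone, the log2 fold change of *Htr2a* was 0.29, without a call (limma adjusted p = 0.113).

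*Htr2c*, X-linked and known for its strong expression in choroid plexus, had 24.7, 23.5 and 20.35 CPM in controls and 30.7, 19.6 and 26.55 CPM in the cKO libraries. The groups overlapped, and the log2 fold change was 0.14 (95% interval -0.20 to 0.49, limma adjusted p = 0.59). The choroid plexus list (10 genes) summed to 10.1, 11.05 and 32.4 CPM in controls and to 11.45 to 12.15 CPM in the cKO libraries. The control with the highest sum, replicate 3, had the lowest *Htr2c* of the controls, and 26.7 CPM of its sum was *Ttr*. The part of choroid plexus RNA in *Htr2c* was not tested. Of the 10 choroid plexus genes, 3 passed the filter and none was called by limma. There were 0.83, 0.74 and 0.88 reads of *Htr2a* per read of *Htr2c* in controls and 0.72, 1.19 and 1.09 in the cKO libraries, so a difference between the responses of the pair was not shown (exact permutation test, two-sided p = 0.4).

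*Htr3a*, with 9 exons on chromosome 9 of mm9 from 48707319 to 48719204, had 6.70, 7.25 and 6.71 CPM in controls and 8.34, 9.83 and 9.70 CPM in the cKO libraries, again with no overlap. The log2 fold change was 0.42 (SE 0.11, limma adjusted p = 0.029). The call was kept without *Mef2c* cKO replicate 1 and lost without any one of the other 5 mice, with limma adjusted p-values of 0.054 to 0.091. Among 9 markers of the interneuron class that *Htr3a* defines, *Ndnf*, *Npas1* and *Tac2* were called higher and none lower, while *Vip* had 28.3 to 33.3 CPM in controls and 32.9 to 35.3 CPM in the cKO libraries. The 9 markers summed to 212.6 to 246.3 CPM in controls and 224.9 to 237.1 CPM in the cKO libraries. The largest part of each sum was *Reln*, at 105.1, 126.1 and 115.9 CPM in controls and 103.0, 94.5 and 100.6 CPM in the cKO libraries. Its cKO values all lay below the controls, without a call (limma adjusted p = 0.086). The part of the 9 markers in the result was not tested.

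*Htr5a*, on chromosome 5 of mm9 from 28168487 to 28181626, encodes a Gi/o-coupled receptor outside class 1. It had the most reads of the 10 genes in controls and, relative to its mean, varied least among them there. Its level was 31.9, 30.9 and 30.8 CPM in controls and 29.75, 34.0 and 34.4 CPM in the cKO libraries. The 95% interval of the log2 fold change, -0.11 to 0.24 around 0.065, lay within the threshold of 0.3 (limma adjusted p = 0.63).

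**Figure D2:**
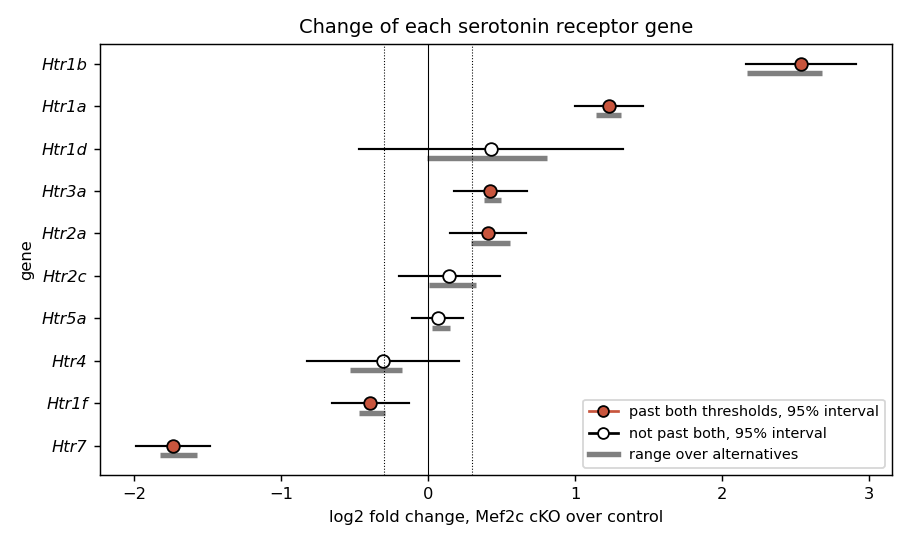
Log2 fold change of each gene, mice labelled *Mef2c* cKO over control, with its 95% limma interval (black line). Red points passed both thresholds, grey bars give the range over the alternatives fitted to recovered counts, and dotted lines mark a log2 fold change of 0.3 in either direction. The intervals of *Htr1b*, *Htr1a* and *Htr7* lie beyond the dotted lines.

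*Htr1a*, *Htr1b* and *Htr7* were called under all 16 alternatives that used recovered counts, with log2 fold changes of 1.14 to 1.31, 2.17 to 2.68 and -1.82 to -1.57. Counts with non-overlapping genotypes were 4 of 10 genes with every cKO value above every control, beside 16.3% of all genes tested, and 2 of 10 with every cKO value below, beside 17.5%. These were the same genes as the 6 called. In the mice of 12 weeks alone, *Htr1a*, *Htr1b*, *Htr2a* and *Htr7* were called, while *Htr1f* and *Htr3a* had log2 fold changes of -0.43 (limma adjusted p = 0.143) and 0.48 (limma adjusted p = 0.063). On the deposited RPKM values, with their differing lengths, 1 of 6 tested receptor genes was called, *Htr1b*, beside 0.176% of all genes tested there. The age of 14 weeks was represented by 1 mouse of each genotype and allowed no test of its own.

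To compare levels between genes, CPM were divided by the annotated exon length in gencode of mm9, which may differ from the annotation the reads were counted on. On this scale of CPM per kb, *Htr2a* was highest in controls (6.26 ± 0.56, SD, n = 3), followed by *Htr5a* (5.59 ± 0.11), *Htr7* (4.82 ± 0.54), *Htr1f* (4.41 ± 0.19) and *Htr3a* (3.31 ± 0.15). *Htr1a* (2.59 ± 0.31), *Htr2c* (2.45 ± 0.24) and *Htr1b* (1.84 ± 0.35) came next, and *Htr4* (0.44 ± 0.076) and *Htr1d* (0.34 ± 0.19) were lowest. The values of the libraries overlapped between *Htr7* and *Htr1f*, between *Htr1a* and *Htr2c*, between *Htr2c* and *Htr1b* and between *Htr4* and *Htr1d*, so these neighbours were not separated by their spread.

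In the cKO libraries the order on the same scale was *Htr1b* (11.05 ± 1.71), *Htr2a* (8.34 ± 1.23), *Htr1a* (6.08 ± 0.31), *Htr5a* (5.87 ± 0.46), *Htr3a* (4.46 ± 0.40), *Htr1f* (3.37 ± 0.42), *Htr2c* (2.75 ± 0.60), *Htr7* (1.42 ± 0.023), *Htr1d* (0.46 ± 0.19) and *Htr4* (0.36 ± 0.11). Here *Htr1b* and *Htr2a*, *Htr1a* and *Htr5a*, *Htr1f* and *Htr2c*, and *Htr1d* and *Htr4* overlapped. *Htr7* moved from the third place to the eighth, and *Htr1b* from the eighth to the first. The place of *Htr2c* depends on its length, 9328 bases, although its coding transcripts hold only 5063 different stretches of 50 bases. The place of *Htr1b* also depends on its length. Its gencode exon has 1273 bases, and over the 5542 bases that the gene spans in RefSeq its level would be 0.42 per kb in controls and 2.54 per kb in the cKO libraries.

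**Figure D3:**
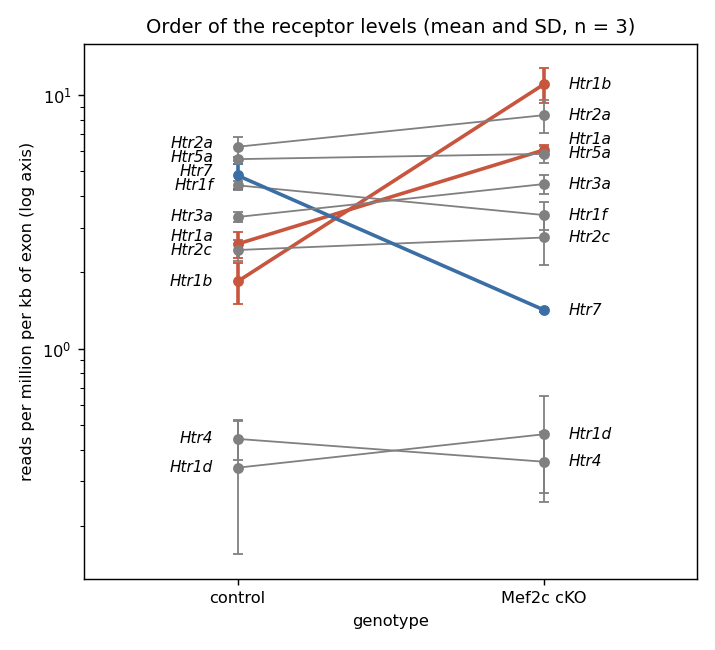
Mean level of each gene per kb of annotated exon (CPM per kb, log axis) in control and labelled *Mef2c* cKO mice, with the SD over 3 mice. Red lines are *Htr1a* and *Htr1b*, the blue line is *Htr7*, which falls from 4.82 to 1.42, and grey lines are the other 7 genes.

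Of the other serotonin receptor genes of the mouse, *Htr6*, whose product couples to Gs and is abundant in striatum, passed the filter and was called. It had 4.998, 5.446 and 5.61 CPM in controls and 6.60, 7.66 and 7.13 CPM in the cKO libraries, a difference of 0.41 on the log2 scale (SE 0.11, limma adjusted p = 0.041). The other 3 failed the filter. *Htr5b* had 0.44, 0.55 and 0.47 CPM in controls and 1.47, 0.10 and 0.72 CPM in the cKO libraries, so that it was both highest and lowest in cKO mice. *Htr3b*, which encodes the second subunit of the serotonin-gated channel, had 4 to 10 reads in each library. *Htr2b* had 0 to 6 reads, and its 0 reads in *Mef2c* cKO replicate 2 allow up to 0.155 CPM at 3 reads.

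Several marker lists also differed between the genotypes. Of 8 upper layer markers, 7 were called lower, among them *Cux2* and *Rorb*, and the list summed to 593.5 to 683.5 CPM in controls and 212.5 to 256.2 CPM in the cKO libraries. The 8 layer 6 and subplate markers summed to 347.4 to 432.4 CPM in controls and 518.7 to 582.5 CPM in the cKO libraries, with *Ntsr1*, *Nxph4* and *Tbr1* called higher. *Tbr1*, also on the list of pyramidal neuron markers, made the largest part of these sums, with means of 194.4 CPM in controls and 310.2 CPM in the cKO libraries. The genotypes overlapped for *Tle4*, *Foxp2*, *Ctgf* and *Cplx3*. Of 8 layer 5 markers, 7 were tested and 3 called lower, *Pcp4* being listed at 0 in all 6 libraries, and of 10 pyramidal neuron markers 5 were called higher and 2 lower. The part of these lists in the changes of *Htr1a*, *Htr1b* and *Htr7* was not tested.

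Striatal RNA differed between the cKO libraries. The 8 striatum markers summed to 159.4, 202.1 and 148.2 CPM in controls and to 371.5, 208.2 and 344.9 CPM in *Mef2c* cKO replicates 1, 2 and 3. *Drd1* and *Penk*, which cortical neurons also express, were called higher and none of the 8 lower. *Adora2a*, an adenosine receptor gene typical of striatal neurons, had 5.14 to 9.56 CPM in controls and 20.3, 1.345 and 14.1 CPM in *Mef2c* cKO replicates 1, 2 and 3. Replicate 2 had a sum close to the highest control, but this sum mixed markers that differed from controls in opposite directions. In this library *Drd1* and *Penk* lay above every control. *Drd2*, *Adora2a*, *Rgs9*, *Gpr6* and *Ppp1r1b* lay below every control there, and *Tac1* lay within the control range. The same library had 11.75 CPM of *Htr1b*, 5.01 times the control mean, with 26.0 CPM of *Htr1a* and 4.81 CPM of *Htr7*. The other 2 cKO libraries had 6.85 and 6.13 times the control mean of *Htr1b*. The part of the striatal markers was not tested for these 3 genes, nor for *Htr4* and *Htr6*, which striatum also expresses.

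Of 10 GABA neuron markers, *Sst* was called higher and *Pvalb* lower, and the list summed to 1406 to 1513 CPM in controls and 1356 to 1381 CPM in the cKO libraries. The 6 oligodendrocyte markers summed to 3105 to 5132 CPM in controls and 5043 to 6470 CPM in the cKO libraries, and *Mobp* alone was called, as higher. Of 6 astrocyte markers *Aqp4* and *Gfap* were called higher and *Aldh1l1* lower, and *Prkcd* was called higher among 5 tested thalamus markers. The thalamus list summed to 43.35 to 45.92 CPM in controls and 50.02 to 58.49 CPM in the cKO libraries. None of the 6 microglia and 6 endothelial cell markers was called by limma. The microglia list summed to 187.7 to 209.1 CPM in controls and 177.8 to 182.8 CPM in the cKO libraries, and the endothelial list to 215.4 to 239.4 and 208.3 to 215.5 CPM.

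**Figure D4:**
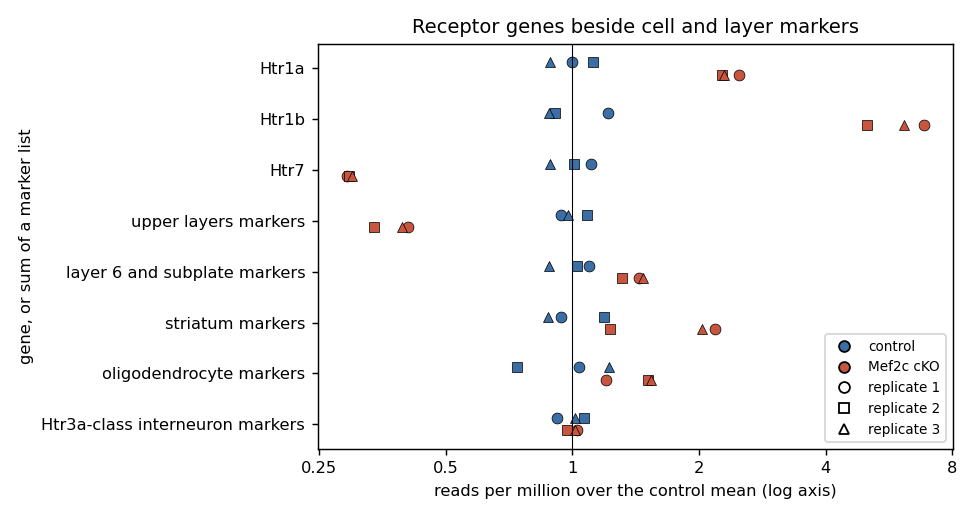
CPM over the control mean (log axis) of *Htr1a*, *Htr1b* and *Htr7* and of some summed marker lists, for each control (blue) and labelled *Mef2c* cKO mouse (red). The lists shown are upper layers, layer 6 and subplate, striatum, oligodendrocytes and the *Htr3a* class of interneurons. Upper layer markers lie between 0.337 and 0.406 in the cKO mice, and striatum markers separate *Mef2c* cKO replicate 2 (1.23) from replicates 1 and 3 (2.19 and 2.03).

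The rest of the serotonin pathway was represented by 49 genes in 6 lists, of which 41 were tested and 12 called, 4 as higher and 8 as lower, *Htr6* included. This is 29.3% of the genes tested, beside 13.7% over all genes (5.88% higher and 7.77% lower), and their median log2 fold change was -0.0021. In the list for synthesis, transport and breakdown, 2 of the 6 genes tested were called lower. *Tph2*, the neuronal enzyme that starts serotonin synthesis, had 1.59, 1.72 and 1.59 CPM in controls and 0.55, 0.88 and 1.053 CPM in the cKO libraries, and the log2 fold change was -0.94 (limma adjusted p = 0.025). *Slc22a3*, a low-affinity transporter of serotonin and other amines, had 1.62, 2.79 and 1.998 CPM in controls and 0.86, 0.31 and 0.55 CPM in the cKO libraries, and the log2 fold change was -1.78 (limma adjusted p = 0.0050). The serotonin transporter *Slc6a4* and the vesicular transporter *Slc18a2* stayed under 0.5 CPM in every mouse. The 7 markers of serotonergic neurons, which share 4 genes with this list, summed to 7.15 to 7.88 CPM in controls and 6.14 to 7.82 CPM in the cKO libraries, and *Fev*, which defines these neurons, was at 0 in 4 of the 6 libraries.

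Downstream of the class 1 receptors, 2 of 8 tested genes for Gi/o proteins and GIRK channels were called, in opposite directions. The GIRK subunit gene *Kcnj6* had 98.4, 96.7 and 110.5 CPM in controls and 144.1, 141.2 and 117.8 CPM in the cKO libraries (log2 fold change 0.40, limma adjusted p = 0.014). *Kcnj9*, another GIRK subunit gene, had 192.0, 219.9 and 187.7 CPM in controls and 151.8, 159.9 and 171.7 CPM in the cKO libraries (log2 fold change -0.31, limma adjusted p = 0.022). The list as a whole had a median log2 fold change of 0.063.

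Of 7 tested genes for Gq proteins and phospholipase C beta, which act after the class 2 receptors, *Plcb4* was called lower, and the log2 fold change was -0.48 (limma adjusted p = 0.000985). Its levels were 75.1, 77.4 and 84.1 CPM in controls and 56.7, 58.6 and 54.0 CPM in the cKO libraries. The list had a median log2 fold change of -0.024.

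Of 11 genes for Gs proteins and adenylyl cyclases, all tested, 2 were called higher and 3 lower. *Gnal*, the Gs-like alpha subunit typical of striatum and olfactory tissue, had 147.6, 164.3 and 135.4 CPM in controls and 216.3, 166.4 and 217.9 CPM in *Mef2c* cKO replicates 1, 2 and 3. The 2 cKO libraries with the higher *Gnal* were those with the higher striatum marker sums, and the part of these markers in *Gnal* was not tested. The cyclase gene *Adcy9* was higher, by 0.50 on the log2 scale (limma adjusted p = 0.00080). The cyclase genes *Adcy2*, *Adcy7* and *Adcy8* had log2 fold changes of -0.43, -0.90 and -0.52, with limma adjusted p-values of 0.00066, 0.0044 and 0.0098. Cyclase genes thus moved in both directions, as the receptor genes did.

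Among 8 genes for receptor partners and desensitization, the receptor kinase gene *Grk5* was called lower, at 20.6, 17.8 and 21.65 CPM in controls and 17.2, 13.6 and 14.6 CPM in the cKO libraries (log2 fold change -0.40, limma adjusted p = 0.041). The other 7 were not called, and the median of the list was -0.17.

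**Figure D5:**
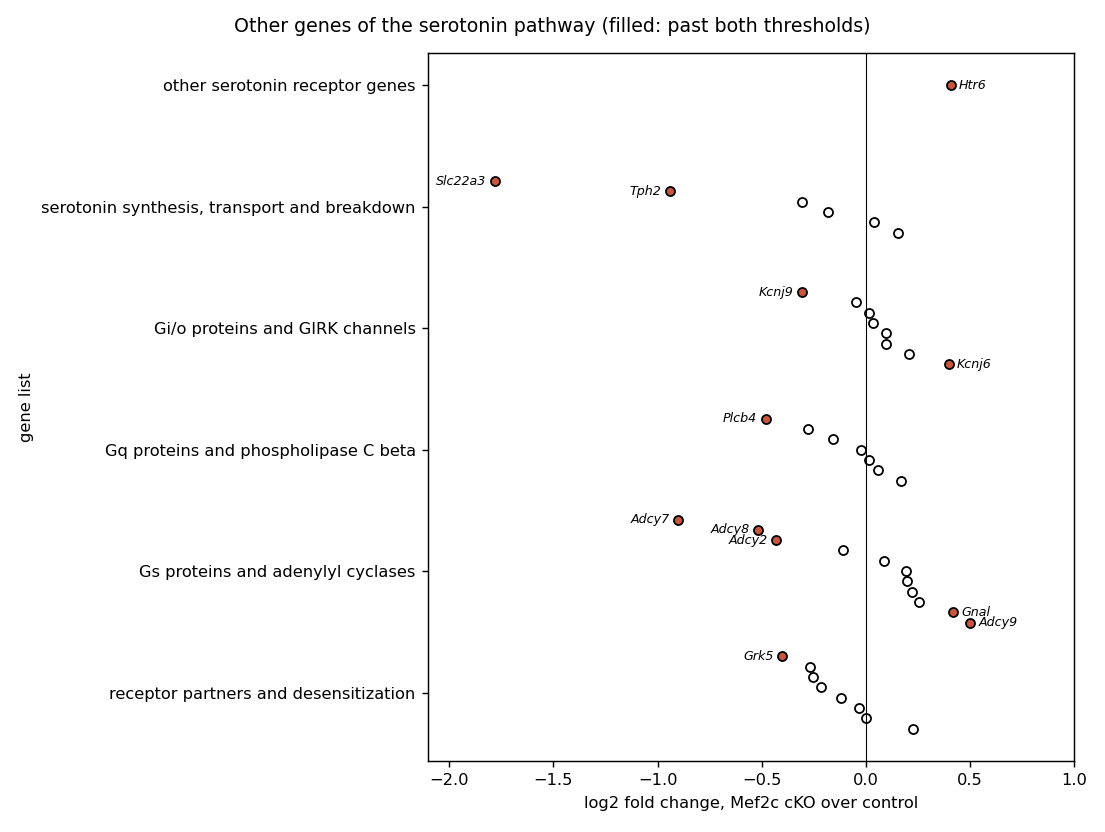
Log2 fold change, mice labelled *Mef2c* cKO over control, of the 41 tested genes in 6 lists of the serotonin pathway. Filled points with names are the 12 genes past both thresholds, from *Slc22a3* at -1.78 to *Adcy9* at 0.50.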

How the data were processed

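RNA of the somatosensory cortex was sequenced from 3 mice of each genotype after polyA selection and directional library preparation. The authors aligned reads to mm9 with TopHat and Bowtie, counted genes with HTSeq and a UCSC mm9 annotation and converted the counts to RPKM, the unit of the deposited tables, one per mouse. Versions and the strand setting are not given in the sources used here. Per the labels, TopHat, Bowtie, HTSeq and mm9 were used.

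The deposited RPKM values are whole counts divided by lengths that repeat along the genes in order of Entrez ID, with a cycle of 65 to 296 lengths that differs between mice. Totals and counts were recovered from this structure. At least 99.43% of values above 0 in each table were recovered, and the counts summed to 99.99% of the total found. In 6 simulated tables all 6 totals were found. Rows without a gene name (92, at most 0.085% of reads) were left out. This recovery was chosen after the data had been seen.

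Log2(CPM + 0.1) was compared with limma 3.58.1 in R 4.3.3 (lmFit, eBayes with a variance trend). Genes needed a CPM above 0.5 in every mouse of at least 1 genotype and at least 2 recovered counts per genotype. With the pseudocount, fold changes of genes with few reads are understated. Calls needed a Benjamini-Hochberg adjusted p-value under 0.05 over all genes tested and an absolute log2 fold change above 0.3. In simulated counts of this comparison, with 14665 genes tested, 78.8% of the genes changed by 0.6 on the log2 scale and 100% of those changed by 1 or 2 were called. Ratios within libraries were compared with an exact two-sided permutation test in scipy 1.17.1, which cannot go below p = 0.1 here. Samples are separate animals by the description of the study, with Cre-negative littermates as controls. Depth was 19326365 to 54128334 reads, and the half-width of the exact 95% binomial interval of a member's CPM in 1 library went from 4.57% (*Htr5a*) to 54.5% (*Htr1d*) of its value.

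No 50-base stretch of the annotated coding transcripts of the 10 genes was shared with those of another gene. Exon positions are from gencode of mm9, promoters from RefSeq on GRCm38.p6. One marker symbol, Drd1a, was matched as *Drd1*. One further striatum marker of the list is not reported here, and the striatum counts and sums are over the other 8. The 10 genes, the pathway and marker lists and the tests were chosen with earlier results of these data known. The genes named are the 10 members, the 4 other receptor genes, *Mef2c*, the called genes of the pathway lists (at most 12) and any gene of those lists at 0 in all mice. Others were named after their values were seen: *Slc6a4*, *Slc18a2*, *Fev* and the markers, *Pcp4* and *Emx1* included. Tables were handled with Python 3.11.15 and plots drawn with matplotlib 3.10.9. Alternatives were other pseudocounts, filters, scalings and models, the deposited RPKM values, single-length counts, a replicate block, the mice of 12 weeks and leaving out each mouse.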

Additional observations from a re-analysis of the deposited data

How the results depend on the processing

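*Htr1a*, *Htr1b* and *Htr7* kept their direction and their call under each of the 16 alternatives on recovered counts, with adjusted p-values of at most 0.0024, 0.00031 and 0.00071. The number of receptor genes called higher, 4, was 3 without the filter, without the variance trend, with single-length counts and in the mice of 12 weeks only, 2 with a replicate block and 2 to 4 when 1 mouse was left out, and the number called lower, 2, was 1 without the filter, without the variance trend, with single-length counts, with a replicate block and in the mice of 12 weeks only, and 1 to 2 when 1 mouse was left out. *Htr1f*, *Htr2a* and *Htr3a* lost the call under 10, 8 and 7 of the 16, and the cause was not tested. In the mice of 12 weeks, the log2 fold change of *Htr1d* was -0.0083, against 0.43 in all mice. The deposited RPKM values, whose lengths differ between mice, gave 14 genes called of 7974 tested (9 higher, 64.3%) against 1997 (43.1% higher) on counts. On them limma tested 6 of the 10 receptor genes and called 1 higher, *Htr1b*, and 0 lower, with 1 lower at an unadjusted p under 0.05, and *Htr2c* changed sign, to -2.33. The count of all genes called stayed between 1474 and 2030 on recovered counts. Same-numbered mice did not deviate together (correlations of -0.176 to -0.0816 across genes), and none correlated best with its own number. Deviations from the mean of 3 mice are tied to each other, so these correlations cannot show whether the replicate number pairs mice beyond their age. The block gave 1695 calls over all genes. Counting error limits *Htr1d* and *Htr4* most, with as few as 15 and 26 reads in a library.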
